A study of Mus musculus with 4 samples.

Results

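Glycolysis and hypoxia-inducible genes are described here as a set of 35 genes in mouse hepatic stellate cells given IL17A, conditioned medium of adipose-derived stem cells, or both. The set holds genes of glucose and lactate transport, of glycolysis, of the oxygen-sensing pathway, and other genes known to be induced by low oxygen. Members were found by their gene symbol among the 26704 genes named on the arrays. All 35 had at least 1 probe, and all 35 were well above background on all 4 arrays, as were 14487 genes in all. The set was not chosen by a measured value of these arrays, but it was proposed with earlier results of the same data known.

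The cells were IMS/N, a line of hepatic stellate cells from normal 129/Sv mice, immortalized with SV40. Stellate cells are the vitamin A storing cells of the liver that turn into matrix-producing myofibroblasts on injury. The 4 groups were cells given recombinant murine IL17A plus ADSCmedia, cells given IL17A alone, cells given ADSCmedia alone, and untreated cells. ADSCmedia is medium taken from cultures of adipose tissue-derived stem cells, which came from subcutaneous fat of male C57BL/6J mice aged 8 to 10 weeks. Doses and exposure times are not given in the sources used here. Each group was 1 culture of 1 immortalized line on 1 single-colour Agilent array, so no difference below has a replicate check and none was tested. The IL17A plus ADSCmedia array and the ADSCmedia array shared 1 slide and scan, and the IL17A array and the untreated array shared another. IL17A was therefore compared within a slide, whereas a difference made by the medium cannot be told apart from a difference between slides.

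Between 58.1% and 60.5% of the 43379 gene spots on an array were well above background, and no spot was saturated. Of 16 stellate or myofibroblast markers, 12 were well above background on all 4 arrays. Des and Lrat were so on some arrays only, and Reln and Hand2 on none. None of the 5 hepatocyte markers found was well above background on any array. Of the markers of other cell types, 3 of 6 for macrophages, 2 of 5 for endothelium, 4 of 6 for cholangiocytes or mesothelium, 1 of 5 for adipocytes and 3 of 5 for adipose stroma were measured on all 4 arrays, among them Cd14, Krt19, Fabp4 and Cd34. Adgre1, Pecam1, Cdh5, Epcam, Adipoq and Dpp4 were on none. In RNA from a whole culture, fewer cells of a kind and less RNA per cell cannot be told apart. The 8 genes listed as a check of the IL17A response (Il6, Cxcl1, Cxcl5, Lcn2, Nfkbiz, Zc3h12a, Cebpd and Saa3) were all at least 2-fold higher with IL17A, both with and without the medium.

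Glycolysis splits glucose into pyruvate in the cytoplasm, and cells that run it fast turn pyruvate into lactate and export it. Its genes are shared targets of hypoxia-inducible factor 1, whose alpha subunit is encoded by Hif1a. In normal oxygen, the prolyl hydroxylases encoded by the Egln genes mark that subunit for degradation, and in low oxygen it accumulates, pairs with its partner Arnt and binds a short motif before its target genes. Egln1 and Egln3 are themselves targets, which forms a feedback loop. In many cells inflammatory signals also raise Hif1a mRNA without a fall in oxygen. Activated stellate cells are known to use more glycolysis than quiescent ones. The arrays measure mRNA only, so neither Hif1a protein, oxygen nor lactate was measured.

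The core of the hypoxia response element is ACGTG or GCGTG. Both were searched, on both strands, in the 250 bases before each start in the promoter table of RefSeq (build GRCm38.p6). The table held 33 of the 35 members, Ero1l under its current symbol Ero1a. Slc2a3 and Ndrg1 were not matched. At least 1 match to either motif stood before 30 of the 33 members (90.9%), against 60.7% of the 9859 genes well above background on all 4 arrays with an entry and 41.5% of all 27025 genes in the table. ACGTG alone stood before 21 members (63.6%), against 24.5% and 18.5% of those genes, and GCGTG before 22 members (66.7%), against 49.8% and 30.9%. A gene with several starts counted once if any of them had a match. A match is a run of letters and not a bound site, and many of these genes are known as targets through such motifs. The windows of 6 members are printed because these genes are central to what follows. Egln1, Egln3 and P4ha1 encode prolyl hydroxylases, and Slc16a3, Ankrd37 and Pdk1 had the largest gaps between the IL17A difference with the medium and that without it. Capitals mark the matches on either strand.
Egln1: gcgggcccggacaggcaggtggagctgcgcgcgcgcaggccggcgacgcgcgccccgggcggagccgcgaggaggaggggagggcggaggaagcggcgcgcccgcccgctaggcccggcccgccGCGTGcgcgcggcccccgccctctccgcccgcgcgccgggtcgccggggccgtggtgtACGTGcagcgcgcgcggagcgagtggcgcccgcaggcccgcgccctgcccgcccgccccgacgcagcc
Egln3: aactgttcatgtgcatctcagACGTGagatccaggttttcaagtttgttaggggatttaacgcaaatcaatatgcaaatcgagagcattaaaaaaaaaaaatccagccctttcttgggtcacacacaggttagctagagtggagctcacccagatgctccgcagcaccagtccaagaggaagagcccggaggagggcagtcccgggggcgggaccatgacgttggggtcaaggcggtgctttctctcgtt
P4ha1: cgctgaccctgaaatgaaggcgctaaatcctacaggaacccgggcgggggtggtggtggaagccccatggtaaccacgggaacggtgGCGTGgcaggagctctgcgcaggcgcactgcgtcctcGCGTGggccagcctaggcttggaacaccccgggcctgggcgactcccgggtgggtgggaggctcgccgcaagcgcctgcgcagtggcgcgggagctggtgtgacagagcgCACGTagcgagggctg
Slc16a3: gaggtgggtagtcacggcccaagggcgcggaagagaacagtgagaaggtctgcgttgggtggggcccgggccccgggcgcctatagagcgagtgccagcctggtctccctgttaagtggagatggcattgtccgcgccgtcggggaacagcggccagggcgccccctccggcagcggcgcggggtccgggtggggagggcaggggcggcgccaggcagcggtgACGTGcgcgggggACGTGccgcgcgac
Ankrd37: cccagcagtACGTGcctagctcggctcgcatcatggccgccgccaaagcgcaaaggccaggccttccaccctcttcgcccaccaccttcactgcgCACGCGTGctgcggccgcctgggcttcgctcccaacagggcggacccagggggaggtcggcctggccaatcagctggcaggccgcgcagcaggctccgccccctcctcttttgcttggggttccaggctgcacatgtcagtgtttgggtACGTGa
Pdk1: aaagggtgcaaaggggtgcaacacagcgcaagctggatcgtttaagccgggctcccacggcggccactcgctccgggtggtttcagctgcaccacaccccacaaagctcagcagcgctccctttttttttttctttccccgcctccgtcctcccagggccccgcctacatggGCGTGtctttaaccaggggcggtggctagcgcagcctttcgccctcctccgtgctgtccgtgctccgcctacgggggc
The windows lie at chr8:124949255-124949504 (minus strand) for Egln1, chr12:54203875-54204124 (minus strand) for Egln3, chr10:59323046-59323295 (plus strand) for P4ha1, chr11:120948817-120949066 (plus strand) for Slc16a3, chr8:45999851-46000100 (minus strand) for Ankrd37 and chr2:71872974-71873223 (plus strand) for Pdk1. Each is written 5′ to 3′ on the strand of its gene. The Ankrd37 window holds 4 matches, 2 of which overlap in CACGCGTG, and 1 of which begins 6 bases before the start. The Slc16a3 window holds 2 copies of ACGTG, which begin 27 and 14 bases before the start. Distances are to the start in the promoter table. That start lies 583 bases from the annotated gene start for Slc16a3, 564 for Ankrd37, 99 for P4ha1 and 9 for Pdk1. For Egln1 and Egln3 it is the annotated start. P4ha1 has 3 matches, Egln1 has 2, and Egln3 and Pdk1 have 1 each. The table lists 2 starts of Pdk1, and the window of the other start, not printed, holds 0 matches.

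Signals are given as log2 of the background-subtracted spot signal after quantile normalization of the 4 arrays, so a difference of 1 is a doubling. A gene is represented by its brightest probe. Probes printed several times on an array gave the spot noise of a difference between 2 arrays, an SD of 0.086 above a level of 7, 0.14 for levels of 5 to 7 and 0.26 below 5. It covers printing and scanning only, not cultures or RNA. A gene was counted as higher or lower where it differed by 1.5-fold or more.

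The contrast of interest is the IL17A difference with the medium against that without it. With the medium on both arrays, the median IL17A difference over the 35 members was -0.077 on the log2 scale, against -0.032 over all genes. It was above 0 for 11 members and below 0 for 24, where it was below 0 for 8520 of 14927 genes. At 1.5-fold, 4 members were higher (Hk2, Hif1a, Adm and Vegfa), where 7.55% of all genes were, and 2 were lower (Aldoc and Ankrd37), where 5.9% were. Over the 14487 genes well above background on all 4 arrays, as all members were, 5.97% were higher and 4.22% lower. Median scaling left 1 member higher and 3 lower, where 7.07% and 7.93% of all genes were, with the median of all genes at -0.24, and scaling to the 75th percentile put 10.2% of all genes higher and 3.68% lower. With each gene taken by its brightest probe with a RefSeq accession, 3.56% of all genes were higher and 6.09% lower. Such a probe already led for 34 of the 35 members, against 71.3% of the 26704 genes. The median of the set was between -0.31 and -0.076 in every processing tried.

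Without the medium, most of the set had an IL17A difference above 0, and 8 members passed 1.5-fold. The median IL17A difference was 0.24, against 0.0033 over all genes. It was above 0 for 26 members and below 0 for 9, where it was above 0 for 7476 of 14715 genes. At 1.5-fold, 8 members were higher, where 5.69% of all genes were higher, and 0 were lower, where 6.54% of all genes were lower. Over the 14487 genes well above background on all 4 arrays, 4.15% were higher and 5.05% lower. The 8 were Slc16a3, Pfkl, Pdk1, Hif1a, Bnip3, Adm, Vegfa and Ndrg1. Ddit4, Hk2 and Slc2a3 lay just under that size, at 0.55, 0.54 and 0.54. The median stayed between 0.20 and 0.53 in every processing tried, and with the arrays scaled to a common median it was 0.53 with 16 members higher, although there the median of all genes was itself 0.21 and 7.75% of all genes were higher. Scaling to the 75th percentile put 3.91% of all genes higher and 9.34% lower.

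The difference between these 2 IL17A differences, with the medium minus without it, uses all 4 arrays and each array once. Its median over the set was -0.25, against -0.030 over all genes. The value was above 0 for 7 members and below 0 for 28, where 8167 of 14487 genes were below 0. At 1.5-fold, 1 member, Eno2, was higher, where 6.34% of all genes were, and 8 were lower, where 5.94% were. The 8 were Slc2a3, Slc16a3, Pfkl, Aldoc, Pdk1, Egln3, Bnip3 and Ankrd37. With normexp background correction, Slc2a3, Aldoc and Egln3 fell under 1.5-fold. Aldoc also did so with scaling to the 75th percentile and with the mean of its probes, where Slc2a3 turned sign. The median stayed between -0.84 and -0.22 in every processing tried. Median scaling counted 0 members higher and 26 lower, but moved the median of all genes to -0.46. Relative to all genes, the set's median was at -0.38 to -0.18 in the processings tried. Scaling to the 75th percentile put 9.0% of all genes higher and 2.15% lower, and median scaling 5.32% and 24.8%. With each gene taken by its brightest probe with a RefSeq accession, 1.98% of all genes were higher and 5.81% lower.

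**Figure D1:**
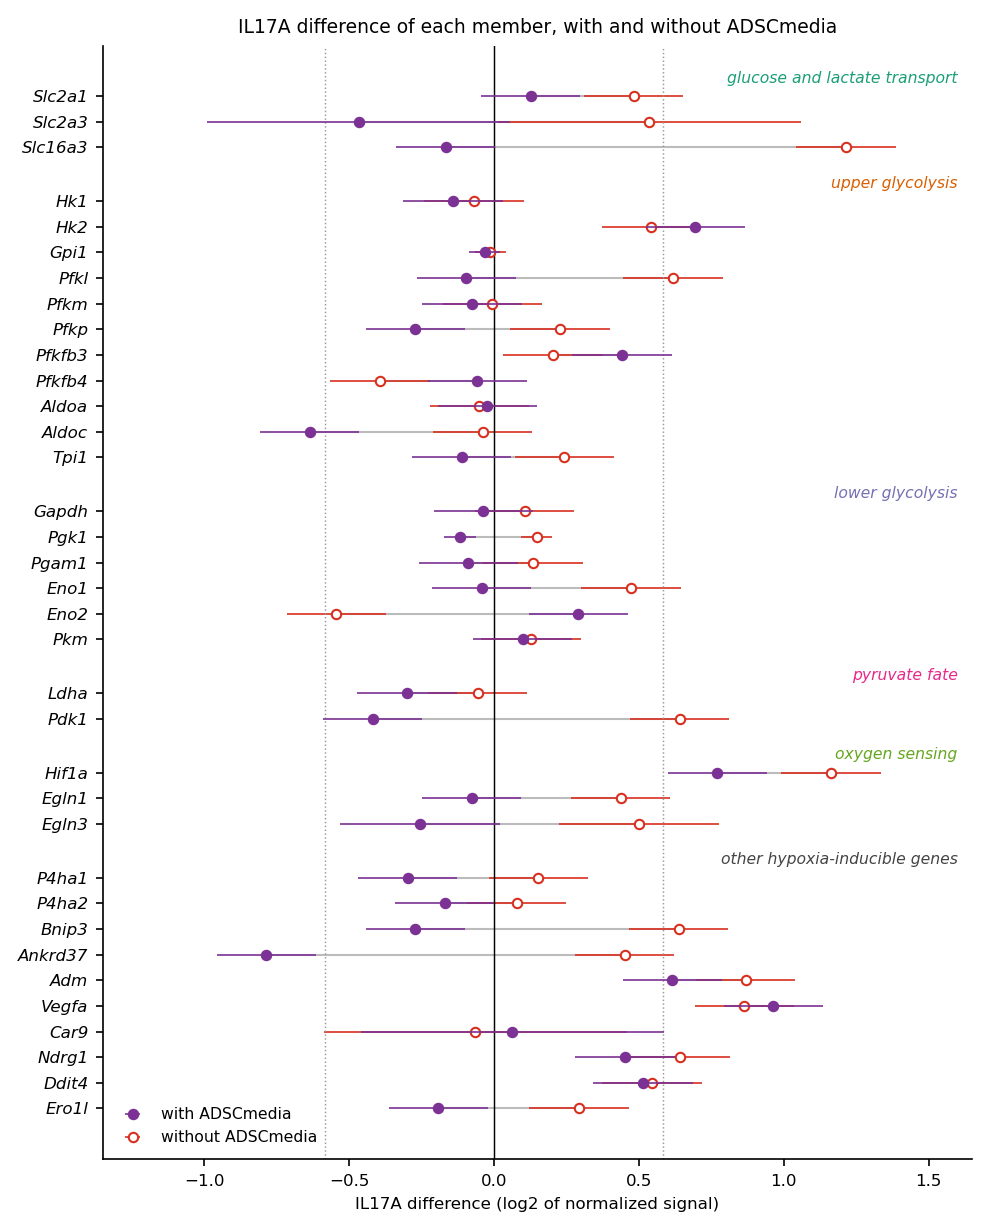
IL17A difference (log2 of normalized signal) of each of the 35 members, grouped by role, with ADSCmedia (filled purple) and without it (open red). Each point is the difference of 2 arrays, whiskers are 2 SDs of spot noise and do not cover replicate error, and dotted lines mark 1.5-fold. The purple points lie left of the red ones for 28 members.

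The levels show the same by array. The IL17A array held the highest level of the 4 for 18 of the 35 members (51.4%), where it did so for 24.3% of all genes. The IL17A plus ADSCmedia array held the highest level for 2 members (5.71%), where it did so for 25.4% of all genes, and it held the lowest for 12 (34.3%), where it did so for 27.1% of all genes. An IL17A difference below 0 with the medium and above 0 without it was seen in 17 members (48.6%), against 22.6% of all genes. It was above 0 in both settings for 9 members (25.7%, against 27.9% of all genes) and below 0 in both for 7 (20%, against 34.5%). It was above 0 with the medium and below 0 without it for 2 members (5.71%, against 15.1% of all genes). Members and all genes also differed within a signal range. Among genes with a mean level between 8 and 12, the 19 members had a median difference between the IL17A differences of -0.48, against -0.0044 for all 6481 genes, and above 12 the 13 members had -0.19, against -0.0055 for 2093 genes.

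Some markers of other cell types also had a lower IL17A difference with the medium than without it. The difference between the IL17A differences was below 0 for all 3 measured macrophage markers (median -0.47), all 3 of adipose stroma (median -0.49), both of endothelium and the 1 of adipocytes (Fabp4, -0.81). It was below 0 for 1 of 4 cholangiocyte or mesothelial markers (Krt19, -0.82) and for 4 of the 12 stellate markers, whose median was 0.13. The log2 summed signal of the 3 macrophage markers, of which Cd14 was by far the brightest, was 9.71 with IL17A plus ADSCmedia, 10.38 with IL17A, 9.01 with ADSCmedia and 9.06 untreated. That of the 3 adipose stromal markers was 13.82 with IL17A plus ADSCmedia, 14.53 with IL17A, 14.22 with ADSCmedia and 14.42 untreated. Both sums were highest on the IL17A array, whereas that of the 12 stellate markers was lowest there, at 17.38 with IL17A plus ADSCmedia, 17.23 with IL17A, 17.60 with ADSCmedia and 17.66 untreated. Whether such cells were present, and their part in the members' values, was not tested.

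**Figure D2:**
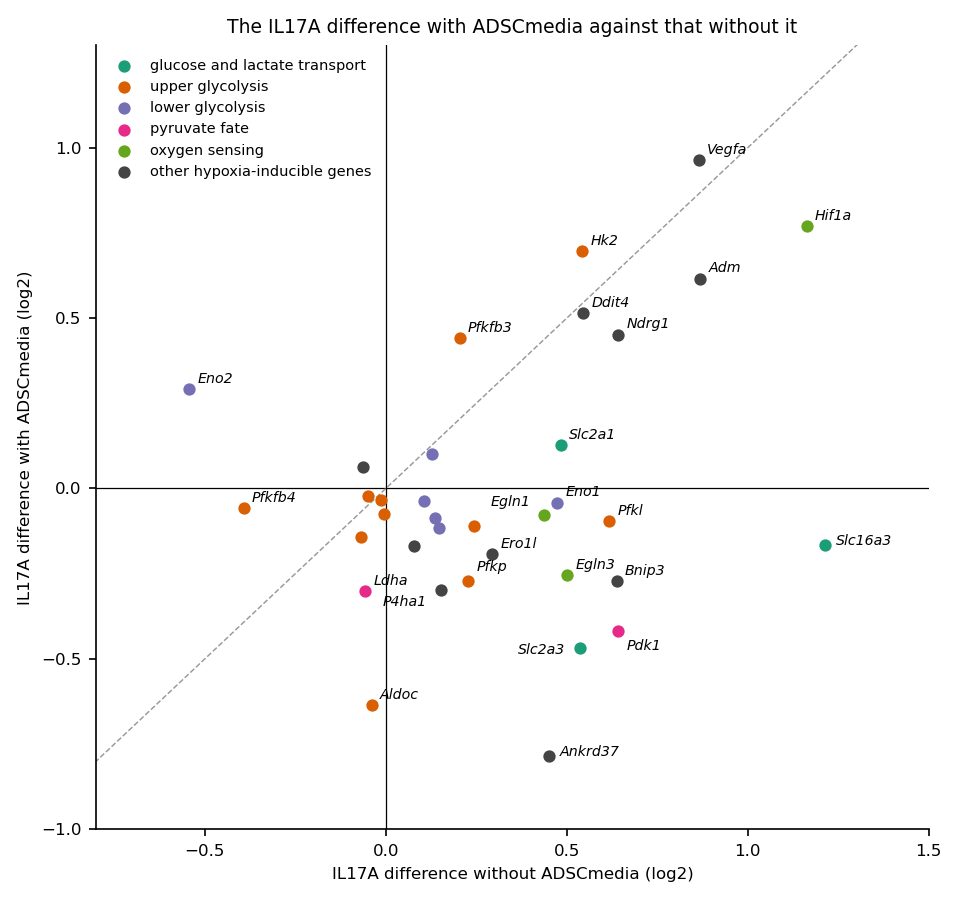
IL17A difference with ADSCmedia (vertical axis, log2) against that without it (horizontal axis, log2) for the 35 members, coloured by role, with the dashed line marking equal values. Vegfa, Hif1a, Adm, Hk2, Ddit4 and Ndrg1 lie above 0 on both axes, while Slc16a3, Pdk1, Bnip3, Ankrd37, Pfkl, Egln1 and Egln3 lie above 0 on the horizontal axis and below 0 on the vertical one.

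Of the 3 genes of oxygen sensing, 1, Hif1a, was past 1.5-fold with IL17A alone against untreated, and Egln1 and Egln3 had smaller differences above 0. Hif1a, the regulated subunit of the factor, had a log2 signal of 9.69 with IL17A plus ADSCmedia, 10.34 with IL17A, 8.92 with ADSCmedia and 9.18 untreated. Both arrays with IL17A were above both arrays without it. The IL17A difference was 0.77 (1.71-fold) with the medium and 1.16 (2.24-fold) without it, a difference of -0.39 between them. Across the processings tried the first of these lay between 0.54 and 0.77 and the second between 1.09 and 1.38.

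Egln1, the main oxygen-dependent hydroxylase that marks the alpha subunit, had 9.49 with IL17A plus ADSCmedia, 9.91 with IL17A, 9.57 with ADSCmedia and 9.47 untreated. The IL17A array stood above the other 3, which lay within 0.10 of each other. Its IL17A difference was -0.077 with the medium and 0.44 without it, and a second, dimmer Egln1 probe gave -0.12 with the medium and 0.65 without it. Egln3, a hydroxylase with strong induction by low oxygen, had 6.59 with IL17A plus ADSCmedia, 6.36 with IL17A, 6.85 with ADSCmedia and 5.86 untreated. Here the untreated array was the lowest and each treatment lay above it. The Egln3 differences against untreated cells were 0.73 with both, 0.50 with IL17A and 0.99 with ADSCmedia, and the IL17A difference within the medium was -0.25, under 2 SDs of spot noise. Across the processings tried, the Egln3 difference with ADSCmedia against untreated lay between 0.53 and 1.12. The difference between its IL17A differences lay between -1.06 and -0.45. P4ha1, a collagen prolyl hydroxylase subunit rather than an oxygen sensor of the factor, had 9.18 with IL17A plus ADSCmedia, 9.38 with IL17A, 9.48 with ADSCmedia and 9.22 untreated. Its IL17A difference was -0.30 with the medium and 0.15 without it, the second under 2 SDs of spot noise. The second P4ha1 probe gave -0.39 with the medium and 0.06 without it. P4ha2, encoding the sister subunit, had an IL17A difference of -0.17 with the medium and 0.078 without it.

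**Figure D3:**
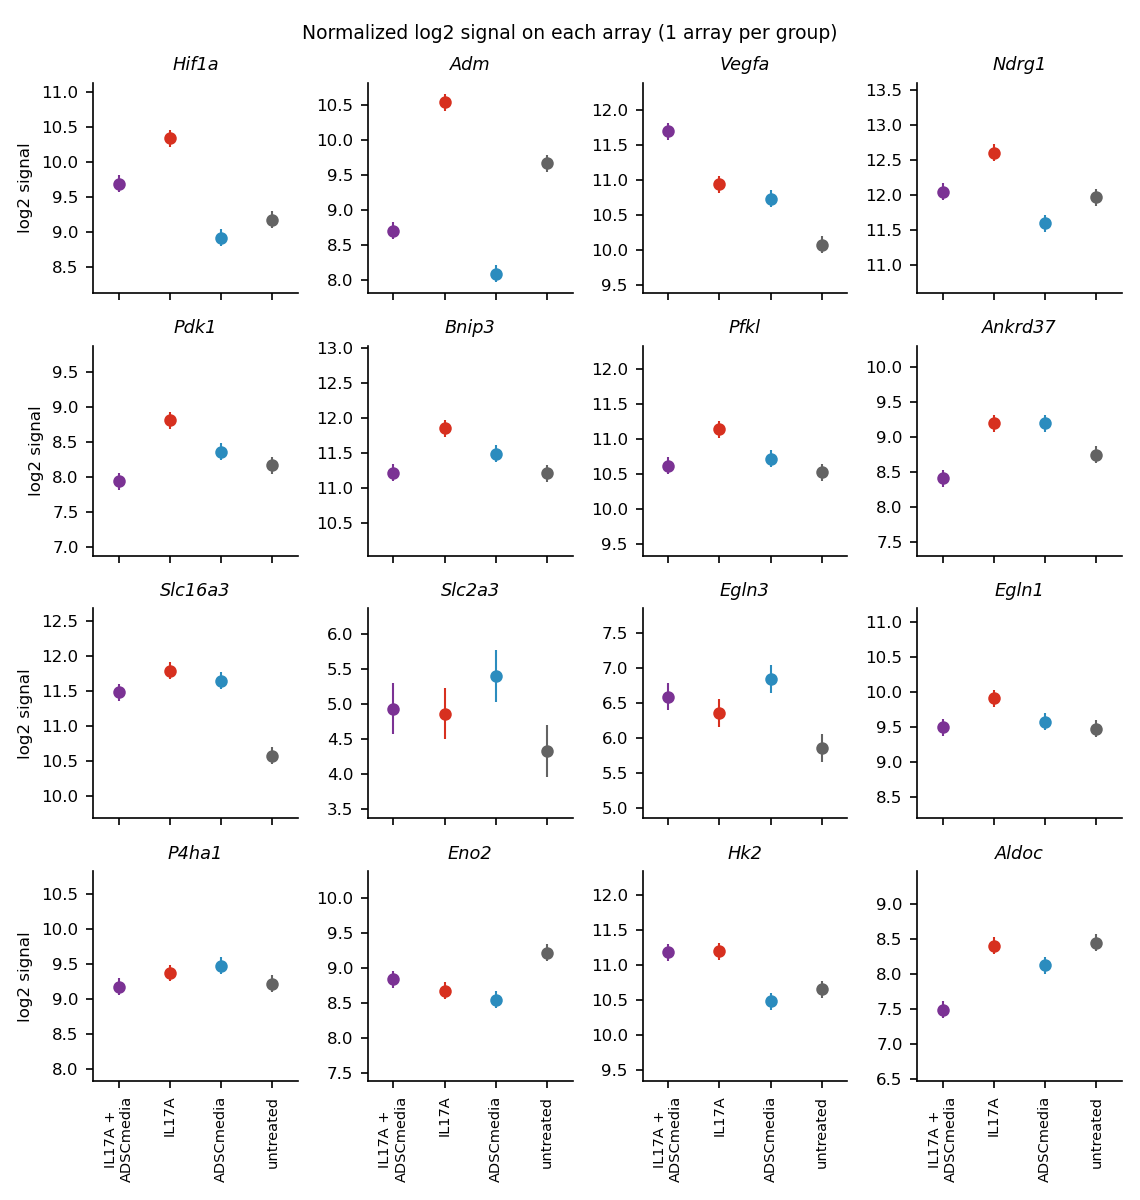
Normalized log2 signal of 16 members on each array (1 array per group), in the order IL17A plus ADSCmedia, IL17A, ADSCmedia and untreated, with every panel spanning 3 log2 units. Whiskers are 2 SDs of single-spot noise and do not cover replicate error. Hif1a and Hk2 are high on both arrays with IL17A, Pdk1, Bnip3, Pfkl and Egln1 are highest on the IL17A array, and Slc16a3, Slc2a3 and Egln3 are lowest on the untreated array.

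The 10 other hypoxia-inducible genes had a median IL17A difference of -0.053 with the medium and 0.50 without it. They comprised genes whose IL17A difference was alike in both settings and genes whose difference had opposite signs. Vegfa, which encodes the endothelial growth factor VEGF-A, had 11.69 with IL17A plus ADSCmedia, 10.94 with IL17A, 10.73 with ADSCmedia and 10.08 untreated. Each treatment lay above untreated cells, and both together gave the highest level, 3.07-fold that of untreated cells. The IL17A difference of Vegfa was 0.96 with the medium and 0.86 without it. All 4 of its probes ran the same way, and the probe printed as 10 spots gave 0.78 with the medium and 0.73 without it. Adm, encoding the vasodilator peptide adrenomedullin, had 8.71 with IL17A plus ADSCmedia, 10.54 with IL17A, 8.09 with ADSCmedia and 9.67 untreated. Both arrays with the medium lay below both without it, by 1.83 (0.281-fold) with IL17A and by 1.58 (0.334-fold) without IL17A, while IL17A was higher by 0.62 with the medium and by 0.87 without it. The Adm gap between arrays with and without the medium is also a gap between slides.

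Ndrg1, a stress-responsive gene of differentiation, had 12.05 with IL17A plus ADSCmedia, 12.61 with IL17A, 11.60 with ADSCmedia and 11.97 untreated. Ddit4, also called REDD1 and an inhibitor of mTORC1, had 13.71 with IL17A plus ADSCmedia, 14.19 with IL17A, 13.19 with ADSCmedia and 13.64 untreated. Both genes were highest with IL17A and lowest with ADSCmedia. Their IL17A differences with the medium were 0.45 for Ndrg1 and 0.51 for Ddit4, and those without it 0.64 and 0.55.

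Bnip3, which encodes a mitophagy receptor, had 11.23 with IL17A plus ADSCmedia, 11.86 with IL17A, 11.50 with ADSCmedia and 11.22 untreated. The array with both treatments was at the untreated level, and the IL17A array was the highest. Its IL17A difference was -0.27 (0.828-fold) with the medium and 0.64 (1.56-fold) without it. Ankrd37, an ankyrin repeat gene widely used as a readout of hypoxia-inducible factor activity, had 8.42 with IL17A plus ADSCmedia, 9.20 with IL17A, 9.20 with ADSCmedia and 8.75 untreated. Each treatment alone lay above untreated cells by 0.45, and both together gave -0.34. The IL17A difference was -0.79 (0.58-fold) with the medium and 0.45 without it, the lowest IL17A difference with the medium among the 35 members. Both genes kept these signs in every processing tried.

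Ero1l, an oxidase for protein folding in the endoplasmic reticulum, had an IL17A difference of -0.19 with the medium and 0.29 without it. Its second probe gave -0.21 with the medium and 0.62 without it. Car9, a carbonic anhydrase that is strongly induced by low oxygen in many cells, was dim throughout, at 4.02 with IL17A plus ADSCmedia, 4.41 with IL17A, 3.96 with ADSCmedia and 4.48 untreated. Its IL17A differences, 0.063 with the medium and -0.064 without it, lay within the spot noise.

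Of the 3 transport genes, 1, Slc16a3, was past 1.5-fold with IL17A alone against untreated, and Slc2a1 and Slc2a3 had smaller differences above 0. Slc16a3, which encodes MCT4, the lactate exporter of glycolytic cells, had 11.48 with IL17A plus ADSCmedia, 11.78 with IL17A, 11.65 with ADSCmedia and 10.57 untreated. All 3 treated arrays lay close together and well above the untreated one, by 1.88-fold with both, 2.32-fold with IL17A and 2.11-fold with ADSCmedia. Within the medium the IL17A difference was -0.17, under 2 SDs of spot noise, and the difference between the 2 IL17A differences, -1.38, was the largest of the set. It rests on the untreated array being low, since the other 3 lay within 0.31 of each other.

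Slc2a1, encoding the glucose transporter GLUT1, had 12.79 with IL17A plus ADSCmedia, 12.90 with IL17A, 12.67 with ADSCmedia and 12.42 untreated. Its IL17A difference was 0.13 with the medium and 0.48 without it. Slc2a3, encoding the transporter GLUT3, was dim, at 4.93 with IL17A plus ADSCmedia, 4.86 with IL17A, 5.40 with ADSCmedia and 4.32 untreated. Again the untreated array was the lowest, with ADSCmedia 2.11-fold higher. A single probe carried the Slc2a3 values. The other 2 were at background, and averaging all its probes turned its IL17A difference without the medium to -0.35, its ADSCmedia difference to -0.28 and the difference between its IL17A differences to 0.19.

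Without the medium, the glycolytic enzymes had medians nearer 0 than the transporters and the other hypoxia-inducible genes. Over the 11 genes of upper glycolysis the median IL17A difference was -0.075 with the medium and -0.0055 without it, and over the 6 of lower glycolysis -0.039 with it and 0.13 without it. The sign of the upper glycolysis median without the medium depended on the scaling, with a highest value of 0.42. The lower glycolysis median without the medium lay between 0.13 and 0.52 in the processings tried. Pfkl, the liver form of phosphofructokinase, had 10.62 with IL17A plus ADSCmedia, 11.14 with IL17A, 10.72 with ADSCmedia and 10.53 untreated. The IL17A array stood above the other 3, with an IL17A difference of -0.095 with the medium and 0.62 without it. Eno1, a ubiquitous enolase, had a like order, at 11.63 with IL17A plus ADSCmedia, 12.05 with IL17A, 11.68 with ADSCmedia and 11.58 untreated. Its IL17A difference was -0.042 with the medium and 0.47 without it.

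Hk2, the inducible hexokinase that traps glucose in the cell, was unlike its pathway neighbours. Its levels were 11.18 with IL17A plus ADSCmedia, 11.19 with IL17A, 10.48 with ADSCmedia and 10.65 untreated. The 2 arrays with IL17A were level and lay above the 2 without it, with IL17A differences of 0.70 (1.62-fold) with the medium and 0.54 without it. Hk1, the constitutive hexokinase, differed by -0.14 with the medium and -0.069 without it. Pfkfb3, which makes the activator of phosphofructokinase, also had IL17A differences above 0 in both settings, 0.44 with the medium and 0.20 without it, and lay 1.7-fold above untreated cells with both treatments. Pfkfb4, a relative of it, had an IL17A difference of -0.058 with the medium and -0.39 without it.

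Eno2, the enolase typical of neurons, was the only member past 1.5-fold upward in the difference between the IL17A differences. It had 8.85 with IL17A plus ADSCmedia, 8.68 with IL17A, 8.55 with ADSCmedia and 9.22 untreated. Each of the 3 treated arrays lay below untreated cells, and the IL17A difference was 0.29 with the medium and -0.54 without it. The second Eno2 probe gave 0.29 with the medium and -0.58 without it. Aldoc, an aldolase of brain and other tissues, had 7.49 with IL17A plus ADSCmedia, 8.41 with IL17A, 8.13 with ADSCmedia and 8.45 untreated. The array with both treatments was the lowest, although a dimmer Aldoc probe gave an IL17A difference of 0.35 with the medium where the brighter gave -0.64.

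Most enzymes of the pathway's trunk had flat signals. Gpi1, Aldoa, Gapdh, Pgk1, Pgam1, Pkm and Tpi1 lay above a level of 15 on every array, and so did Ldha. Gpi1 and Pgk1 were each printed as 10 spots, which gave their differences a spot-noise SD of 0.027. Pgk1, a phosphoglycerate kinase, differed by -0.12 with the medium and 0.15 without it, both beyond 2 of those SDs, while Gpi1, the glucose-6-phosphate isomerase, differed by -0.033 with the medium and -0.013 without it. Tpi1, the triosephosphate isomerase, differed by -0.11 with the medium and 0.24 without it, Pgam1, a phosphoglycerate mutase, by -0.088 with the medium and 0.14 without it, and Gapdh, often used as a reference gene, by -0.036 with the medium and 0.11 without it. Pkm, the pyruvate kinase, differed by 0.10 with the medium and 0.13 without it, Aldoa, the main aldolase, by -0.023 with the medium and -0.050 without it, and Pfkm, the muscle form of phosphofructokinase, by -0.076 with the medium and -0.0055 without it. Pfkp, the platelet form, differed by -0.27 with the medium and 0.23 without it by its brightest probe, and its second probe gave -0.21 with the medium and -0.20 without it.

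Pdk1 and Ldha act on pyruvate. Pdk1, a kinase that closes the entry of pyruvate into the citric acid cycle, had 7.94 with IL17A plus ADSCmedia, 8.81 with IL17A, 8.36 with ADSCmedia and 8.17 untreated. The IL17A array was the highest and the array with both treatments the lowest. Its IL17A difference was -0.42 (0.748-fold) with the medium and 0.64 (1.56-fold) without it, and a second Pdk1 probe gave -0.42 with the medium and 0.66 without it. Against IL17A alone, Pdk1 with both treatments stood at -0.87 (0.548-fold). Ldha, which turns pyruvate into lactate, had 16.13 with IL17A plus ADSCmedia, 16.50 with IL17A, 16.43 with ADSCmedia and 16.55 untreated. Its IL17A differences were -0.30 with the medium and -0.056 without it. A second Ldha probe gave -0.093 with the medium and 0.37 without it, so the 2 probes did not share a sign without the medium. In all, 16 members had more than 1 measured probe, and every measured probe of the gene had the sign of the brightest for 11 of them in the IL17A difference with the medium and for 11 in that without it. In the difference between these 2 IL17A differences, that held for 10 of the 16.

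The medium by itself was compared across slides. ADSCmedia against untreated had a median of 0.063 over the set, against 0.042 over all genes. Scaling to the 75th percentile gave 0.18, against 0.0435 over all genes, with 25 members above 0 and 10 below, and median scaling gave 0.40, against 0.27. At 1.5-fold, 4 members were higher (Slc2a3, Slc16a3, Egln3 and Vegfa), where 7.27% of all genes were, and 2 were lower (Eno2 and Adm), where 7.95% were. With median scaling 7 were higher and 1 lower. That scaling put 12.8% of all genes higher and 6.31% lower, and scaling to the 75th percentile 5.11% and 10.5%.

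Adding the medium to IL17A is the contrast in which the study picked genes lower with the medium. IL17A plus ADSCmedia against IL17A had a median of -0.21 over the set, against 0.019 over all genes. The difference was above 0 for 9 members and below 0 for 26, where it was below 0 for 6986 of 14700 genes. At 1.5-fold, 1 member was higher (Vegfa), where 9.0% of all genes were, and 6 were lower (Aldoc, Pdk1, Hif1a, Bnip3, Ankrd37 and Adm), where 8.85% were. The median was between -0.41 and -0.19 in every processing tried, and median scaling counted 0 members higher and 12 lower. In all genes that scaling gave 7.91% higher and 12.2% lower, and the 75th percentile 12.3% and 6.23%. The brightest probe with a RefSeq accession gave 5.76% higher and 7.86% lower. This contrast, like the one with the medium alone, crosses the slides. IL17A plus ADSCmedia against untreated had a median of 0.0067, against 0.031 over all genes, and its sign depended on the processing. There 5 members were higher (Slc2a3, Slc16a3, Pfkfb3, Egln3 and Vegfa), where 9.29% of all genes were, and 2 were lower (Aldoc and Adm), where 10.5% were. These comparisons share arrays with each other and with the IL17A differences, so they are not separate evidence.

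The authors' deposited lists name probes without values or a stated threshold. Their list of 861 probes higher with IL17A than untreated holds 2.09% of the 41106 probes on the array and 7 of the 63 member probes (11.1%), for Adm, Bnip3, Hif1a, Ndrg1, Pfkl, Slc16a3 and Vegfa. Their deposited list of 1193 probes higher with IL17A than with IL17A plus ADSCmedia holds 2.90% of the probes and also 7 member probes (11.1%), for Adm, Aldoc, Ankrd37, Bnip3, Ldha, Pdk1 and Pfkl. Adm, Bnip3 and Pfkl are on both. These lists come from the same arrays, and both use the IL17A array as the higher one.

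Genes outside the set gave a comparison by pathway. Of 34 further hypoxia-inducible genes, 30 gave a median IL17A difference of -0.032 with the medium. At 1.5-fold, 2 of 31 measured were higher, where 7.55% of all genes were, and 1 was lower, where 5.9% were. Of the 2 higher, Stc1 was well above background on 1 array only. Without the medium, 31 gave a median of 0.32, with 22 above 0. At 1.5-fold, 7 were higher, where 5.69% of all genes were, and 0 lower, where 6.54% were. The difference between the IL17A differences had a median of -0.30 over 30 genes, between -0.74 and -0.23 in the processings tried. It was below 0 for 25, where it was so for 8167 of 14487 genes. At 1.5-fold, 8 were lower, where 5.94% of all genes were, and 0 higher, where 6.34% were. Ak4, an adenylate kinase of mitochondria, led at -1.90, with 5.21 with IL17A plus ADSCmedia, 5.68 with IL17A, 5.90 with ADSCmedia and 4.48 untreated. Angptl4, an inhibitor of lipoprotein lipase, followed at -0.85, with 13.51 with IL17A plus ADSCmedia, 13.30 with IL17A, 13.25 with ADSCmedia and 12.19 untreated. Both were lowest on the untreated array, as was Car12, a carbonic anhydrase, whose difference between the IL17A differences was -0.79.

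**Figure D4:**
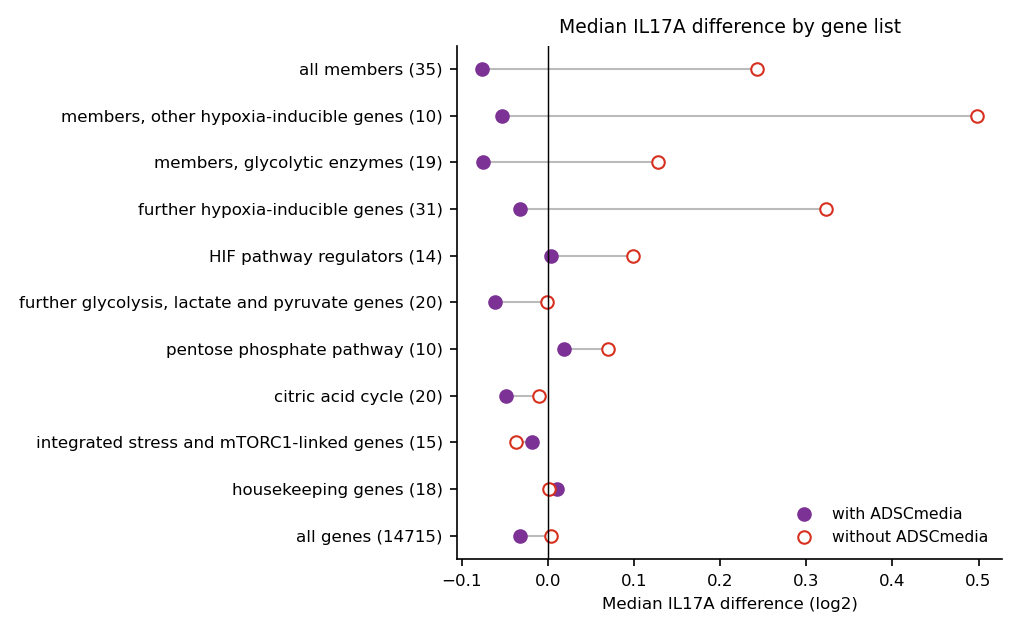
Median IL17A difference (log2) of the members, of further gene lists and of all genes, with ADSCmedia (filled purple) and without it (open red), with the number of measured genes in brackets. The 35 members had -0.077 with the medium and 0.24 without it, the further hypoxia-inducible genes -0.032 with it and 0.32 without it, and without the medium the lists of other pathways lie nearer to all genes.

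The regulators of the factor had a median of 0.0029 with the medium and 0.099 without it over 14 genes. At 1.5-fold, 0 of them were higher and 1 lower with the medium, where 7.55% and 5.9% of all genes were. Without the medium 1 was higher and 0 lower, where 5.69% and 6.54% of all genes were. Arnt2, a dim relative of the partner subunit, differed by -0.18 with the medium and 0.94 without it, Hif3a, an alpha subunit known mainly as an inhibitor, by -0.78 with the medium and 0.49 without it, and Cited2, a competitor for the coactivator, by -0.043 with the medium and 0.58 without it.

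Other parts of carbon metabolism had medians near that of all genes. The 20 measured further genes of glycolysis, lactate and pyruvate had a median of -0.062 with the medium and -0.0017 without it, the 10 of the pentose phosphate pathway 0.018 with it and 0.069 without it, and the 20 of the citric acid cycle -0.049 with it and -0.011 without it. With the medium, 3 of 21 genes of the first list were lower at 1.5-fold and 0 higher, and no gene of the other two passed that size. Of the 3 lower, Slc16a7 was well above background on 1 array only. Without the medium the first list had 1 gene higher and 2 lower, the second 1 higher and 0 lower, and the third 0 in either direction. Over all genes, 7.55% were higher and 5.9% lower with the medium, and 5.69% higher and 6.54% lower without it. Pdk4, a pyruvate dehydrogenase kinase, was lower in both settings, at -1.16 with the medium and -0.95 without it. Among the first, Slc2a4, the insulin-dependent glucose transporter and dim here, differed by -0.21 with the medium and 0.51 without it, Pgam2, the muscle form of the mutase, by 0.23 with the medium and 0.69 without it, and Eno3, the muscle enolase, by -0.67 with the medium and -1.11 without it. Of gluconeogenic genes, 5 could be measured without the medium, G6pc on the untreated array only and with its difference set to 0, and 0 were past 1.5-fold. The 15 genes of the integrated stress response and mTORC1 had a median of -0.018 with the medium and -0.037 without it, with 2 higher and 0 lower at 1.5-fold without it. Myc differed by 0.21 with the medium and 0.62 without it, Trib3 by -0.13 with the medium and 0.20 without it, and Slc7a5 by -0.15 with the medium and -0.38 without it. The 18 housekeeping genes had a median of 0.010 with the medium and 0.0012 without it, and of these Polr2a differed by 1.19 with it.

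**Figure D5:**
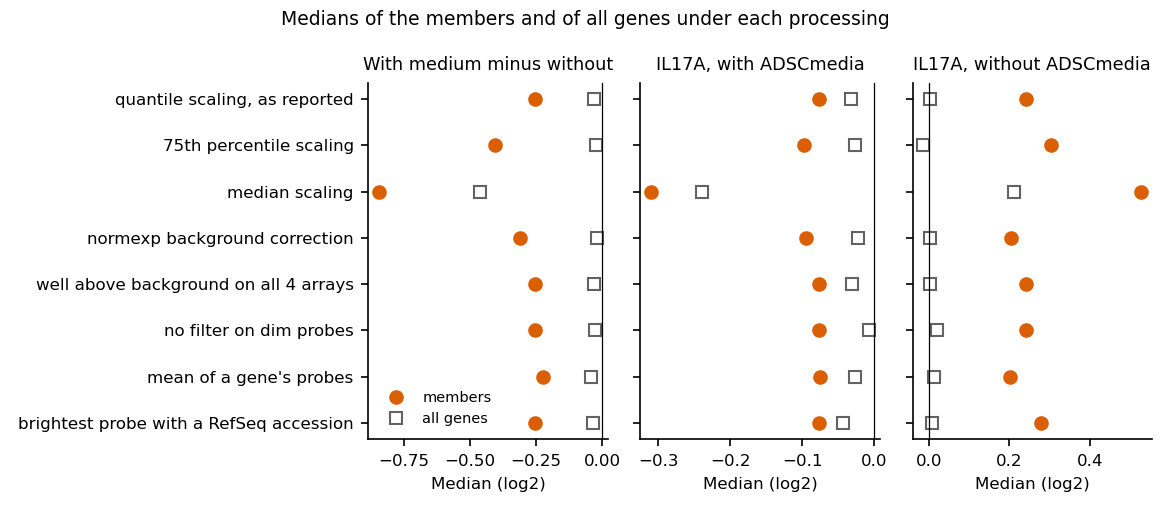
Medians (log2) of the 35 members (orange circles) and of all genes (open grey squares) under each processing, for the IL17A difference with ADSCmedia minus that without it (left), with ADSCmedia (middle) and without it (right). In the left panel the members lie to the left of all genes in every row, and in the right panel they lie to the right of all genes in every row, while in the middle panel the 2 lie close together.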

How the data were processed

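RNA of 4 IMS/N cultures was measured on single-colour Agilent arrays. The deposited scanner files hold spot intensity values made with Feature Extraction 12.1.1.1, per the file headers, with the processed intensity already background-subtracted and not normalized between arrays. Quantile normalization by the authors is stated per the labels, R 3.5.1 is named per the submitters' processing notes, and probe positions are mm9 per the file headers. The deposited flags, a score of 0 or 1 per spot, gave detection and outliers. The 2 other deposited lists hold probe names only.

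Here, control and outlier spots were left out, spots of a probe were averaged, the log2 processed signals of all 4 arrays were brought to one distribution by quantile normalization, and the brightest probe stood for a gene. A difference was kept where the brighter array was well above background, with the dimmer one set at its array's lowest detected signal if undetected. With 1 array per group there was no test: differences of 1.5-fold were counted and set beside all genes. Python 3.11.15, pandas 2.3.3 and NumPy 2.4.6 were used, with limma 3.58.1 in R 4.3.3 for normexp (offset 50). The counting was tested on simulated data. Alternatives were other scalings, normexp, other filters, other probe rules and a 2-fold size. The number of arrays limits the precision. The 35 members and the further lists were chosen with earlier results of these data known. All members are accounted for. Egln1, Egln3, P4ha1, the 8 members with the largest difference between the IL17A differences and the 6 with the largest IL17A difference were to be given in full, with up to 3 genes per further list. Eno1, Slc2a1, Hk2, Aldoc, Ddit4, Car9 and Ldha were added after their values were seen.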

Additional observations from a re-analysis of the deposited data

Results flagged for a closer look

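In 7 members (20%) the IL17A difference had opposite signs with and without ADSCmedia, each beyond 2 SDs of spot noise, where 3.73% of the 14487 genes well above background on all 4 arrays did. The bar is lower for bright genes and for those printed as 10 spots, such as Pgk1. Only 3 members had a mean level below 8, against 5913 of the 14487 genes, so the bars of the 2 shares are not alike. The difference between the settings was not tested, since each group is 1 array. It was -0.2719 with the medium and 0.2278 without it for Pfkp, -0.1167 and 0.1474 for Pgk1, -0.4193 and 0.6415 for Pdk1, -0.2717 and 0.6377 for Bnip3, -0.786 and 0.4513 for Ankrd37, and -0.192 and 0.293 for Ero1l. Eno2 ran the other way, with 0.291 with the medium and -0.5438 without it. A second probe agreed in both signs for Pgk1, Eno2, Pdk1 and Ero1l, but not for Pfkp, and Bnip3 and Ankrd37 have 1 probe each.

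The dimmest Vegfa probe, which the comparisons do not use, was higher with IL17A than untreated by 1.0598 on the log2 scale, past 2-fold, where the brightest Vegfa probe gave 0.86.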

How the results depend on the processing

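No paired analysis was possible because each group has 1 array and no test was made, and for the same reason no array could be left out. The medians of the members moved by more than spot noise in 2 scalings. Scaling to the array median gave 0.53 for IL17A against untreated, -0.31 for IL17A plus ADSCmedia against ADSCmedia, 0.40 for ADSCmedia against untreated, -0.41 for IL17A plus ADSCmedia against IL17A, 0.095 for IL17A plus ADSCmedia against untreated and -0.84 for the difference between the IL17A differences, where the medians of all genes moved to 0.21, -0.24, 0.27, -0.17, 0.056 and -0.46. The 75th percentile gave 0.18 for ADSCmedia against untreated and -0.41 for the difference between the IL17A differences. In the same order of comparisons, counts of members past 1.5-fold changed as follows. Median scaling counted 16 higher, then 1 higher and 3 lower, then 7 higher and 1 lower, then 0 higher and 12 lower, and last 0 higher and 26 lower, with the fifth comparison as before. The shares of all genes there were 7.75%, then 7.07% and 7.93%, then 12.8% and 6.31%, then 7.91% and 12.2%, and last 5.32% and 24.8%. Normexp counted 1 lower with IL17A in the medium, 3 higher with both treatments against untreated and 5 lower for the difference between the IL17A differences, where 0.915%, 3.30% and 0.697% of all genes were. The mean of a gene's probes counted 1 lower with IL17A in the medium, 2 higher with ADSCmedia, 0 higher with both against IL17A, and 3 higher and 1 lower with both against untreated, where 5.55%, 6.45%, 9.16%, 9.08% and 9.70% of all genes were. At 2-fold, counts were 2 higher, 0 and 0, 2 higher and 1 lower, 0 higher and 1 lower, 1 higher and 0 lower, and 0 higher and 4 lower, where between 2.17% and 3.70% of all genes were higher and between 1.57% and 4.28% lower, with 1.57% lower in the last. With the mean of a gene's probes, Slc2a3 turned sign, to -0.35 for IL17A against untreated, -0.28 for ADSCmedia against untreated, -0.44 for both treatments against untreated and 0.19 for the difference between the IL17A differences, where the average takes in 2 probes at background. Detection filters could not move a median or count of the members, since all 35 were well above background on all 4 arrays. They did move the shares of all genes. Over the 14487 genes well above background on all 4 arrays, 5.6% were higher and 6.05% lower with ADSCmedia against untreated. With both treatments, 7.91% were higher and 7.54% lower against IL17A, and 7.39% and 8.68% against untreated. Signal over background limits Slc2a3, Car9 and Egln3, and the number of arrays limits the rest.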

Other observations

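Dim probes assigned to Pkm and Tpi1 through Ensembl transcripts did not follow the bright probes of these genes. With the medium, their IL17A differences were 1.04 for Pkm and 1.01 for Tpi1, where the bright probes gave 0.10 and -0.11. Without the medium they were -0.05 and 0.16. Polr2a, a housekeeping gene listed as a reference, also differed by 1.19 with the medium and by -0.18 without it. The transcripts these probes read were not examined here.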
